A study of Homo sapiens with 5 samples.

Results

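A set of 41 genes of the unfolded protein response and of the ATF4 stress response was compared between MCF10A SAM cells carrying a non-targeting guide and MCF10A SAM cells carrying a guide to the JUN promoter. The genes were chosen by symbol, and all 41 were found by their Entrez identifiers among the 23459 genes of the count table. They were read in 3 groups by role, namely 5 sensors and transcription factors, 20 targets of ATF4, and 16 chaperones and degradation factors of the endoplasmic reticulum (ER). No gene of the set passed the test for differential expression with either edgeR or DESeq2, but few genes did at all, 0.206% and 0.975% of those tested. The 95% interval of the fold change lay within 2-fold for 72.5% of the tested genes of the set, beside 59.4% of all tested genes.

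MCF10A cells are non-tumorigenic, immortalised cells of the human breast epithelium. The SAM derivative, picked as single clones, stably carries dCas9-VP64 (a Cas9 that cannot cut, fused to an activator) and MCP-p65-HSF1 (a second activator, which binds RNA loops in the guide), so both groups contain these proteins as well as a guide. The control group (NTC, genotype non-targeting control) had 3 libraries and the JUN group (sgJUN#1, one guide to the promoter of JUN) had 2. The labels do not say whether all libraries came from 1 clone. The study calls its replicates biological, but the labels do not say whether these libraries were separate cultures, and p-values measure the spread between them. The study also counts fewer replicates for this comparison than the labels list for NTC, so it may have left out an NTC library, and all were used here. RNA was sequenced from the 3′ ends of transcripts, and the 5 libraries held between 2455627 and 4988062 counts. At this depth a gene with no count could still have had up to 3 counts, which is between 0.619 and 1.22 CPM. CPM are counts-per-million of library sizes scaled with TMM factors, and such limits cover counting error only.

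When unfolded proteins accumulate in the ER, the membrane sensors IRE1α (encoded by ERN1), PERK (encoded by EIF2AK3) and ATF6 start the unfolded protein response. IRE1α splices XBP1 mRNA, and the resulting factor works with the cleaved form of ATF6 to raise chaperone and ER-associated degradation (ERAD) genes. PERK, like the kinases that sense amino acid shortage, haem and double-stranded RNA, phosphorylates eIF2α, which lowers translation in general but favours that of ATF4 mRNA. ATF4 then raises genes for amino acid synthesis, amino acid transport and stress signalling. ATF4 is a basic leucine zipper protein, as is JUN, and much of its control is translational, as that of XBP1 is by splicing and that of ATF6 by cleavage. Counts of 3′ ends measure none of these steps.

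Promoter elements through which these branches are known to act are shown first, because the ER genes and the ATF4 targets were read separately. In RefSeq promoter windows on GRCh38.p14, which run from 250 bases before to 50 bases after the transcription start, a script searched both strands. The ER stress response element (ERSE), taken as CCAAT and CCACG with 9 bases between them, was present in 5 of the 15 ER chaperone and ERAD genes with a window, in XBP1 among the 5 sensors and factors, and in none of the 18 ATF4 targets with a window, against 0.0806% of all 27305 promoters. In the 6 stretches below, capitals mark the whole element, written on the strand of the gene. Where it reads CGTGG first and ATTGG last, it lies in the opposite orientation. HSP90B1 has a pair of them.
HSPA5 (chr9:125241381-125241419, minus strand): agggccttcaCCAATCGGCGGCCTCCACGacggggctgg
HSP90B1 (chr12:103930206-103930349, plus strand): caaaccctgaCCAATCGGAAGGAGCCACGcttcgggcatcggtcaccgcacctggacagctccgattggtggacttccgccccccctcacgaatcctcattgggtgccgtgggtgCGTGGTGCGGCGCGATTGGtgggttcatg
CALR (chr19:12938374-12938412, plus strand): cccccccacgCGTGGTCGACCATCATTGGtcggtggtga
CANX (chr5:179698768-179698806, plus strand): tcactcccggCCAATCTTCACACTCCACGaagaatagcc
CRELD2 (chr22:49918544-49918582, plus strand): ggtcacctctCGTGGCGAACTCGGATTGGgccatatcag
XBP1 (chr22:28800593-28800631, minus strand): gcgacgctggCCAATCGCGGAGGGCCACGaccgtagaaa

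The element bound by ATF4 with C/EBP partners (CARE, searched as TGATGNAA) was found in 4 of the 18 ATF4 targets (ASNS, CHAC1, SLC3A2 and SLC7A1) and in 1 of the 15 ER genes (HERPUD1), against 3.67% of all promoters. The cyclic AMP response element TGACGTCA was found in 1 member, PPP1R15A, against 1.98% of promoters, and the XBP1-type element TGACGTGG in 1 member, HYOU1, against 0.795%. The AP-1 site, to which JUN binds with FOS proteins, was searched as TGANTCA. It was found in ATF5, DDIT3, SLC3A2 and HSPA5, and in 7.76% of all promoters. The 5 stretches below show the CARE of ASNS and CHAC1 (in CHAC1 on the opposite strand), the cyclic AMP response element of PPP1R15A and the AP-1 sites of DDIT3 and ATF5, each in capitals. A match of letters is no evidence that a factor binds there.
ASNS (chr7:97872453-97872492, minus strand): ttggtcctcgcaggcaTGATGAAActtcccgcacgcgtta
CHAC1 (chr15:40953246-40953285, plus strand): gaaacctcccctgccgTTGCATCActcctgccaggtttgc
PPP1R15A (chr19:48872347-48872386, plus strand): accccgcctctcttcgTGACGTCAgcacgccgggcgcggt
DDIT3 (chr12:57520733-57520764, minus strand): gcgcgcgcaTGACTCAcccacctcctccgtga
ATF5 (chr19:49928702-49928740, plus strand): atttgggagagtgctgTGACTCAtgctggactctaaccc

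As a check of the labels, JUN was read at 91, 89 and 42 counts in NTC replicates 1 to 3 and at 831 and 742 counts in the sgJUN#1 libraries, which is 25.0, 36.2 and 9.32 CPM against 171.5 and 265.5 CPM. The groups were far apart, with a log2 fold change (sgJUN#1 minus NTC throughout) of 3.25 (SE 0.484). The edgeR quasi-likelihood test gave an adjusted p of 0.0733 and DESeq2 an adjusted p of 7.36e-12. For the cell type, 6 of 7 basal mammary epithelial markers had at least 3 counts in every library, with a summed level of 885.1 to 1478.6 CPM in NTC and 1064.4 to 2264.6 CPM in sgJUN#1. Of the basal keratins, KRT14 had no more than 3.26 CPM in any library. Of 7 luminal and general epithelial markers 6 reached 3 counts in every library and KRT19 was at 0 in all 5, with sums of 100.9 to 160.6 CPM in NTC and 161.4 to 322.6 CPM in sgJUN#1. Most of that gap was EPCAM, with 23.7, 7.33 and 23.3 CPM in NTC and 143.9 and 56.5 CPM in sgJUN#1. Fibroblast markers (2 of 7 present in every library, PDGFRA and DCN) summed to 190.6 to 300.1 and 180.0 to 217.9 CPM. Leukocyte and endothelial markers (3 of 6, CD3E at 0 in all libraries) summed to 14.6 to 19.5 and 21.3 to 25.0 CPM. The part of these differences in the results was not tested, and in bulk RNA fewer cells with a transcript and less of it per cell cannot be told apart.

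Of the 41 genes 40 passed the filter on low counts. The exception was VLDLR, a lipoprotein receptor gene and ATF4 target, with 1, 1 and 6 counts in NTC and 1 and 2 counts in sgJUN#1. With edgeR, 0 of the 40 passed an adjusted p of 0.05, against 28 of all 13616 tested genes, or 0.206%, and the smallest adjusted p was 0.465. DESeq2 likewise called 0 of the 40, against 0.975% of all genes. At an unadjusted edgeR p under 0.05, 1 member was higher in sgJUN#1 (SESN2), where 4.02% of all genes were, and 3 were lower (DDIT4, STC2 and PDIA4), where 4.36% of all genes were. The members' log2 fold changes spanned -1.12 to 0.66, and their median was -0.096, beside -0.008 for all tested genes, and the median size regardless of sign was 0.218, beside 0.233.

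The data also bound the change for most members. For 29 of the 40 genes (72.5%) the 95% interval of the log2 fold change lay wholly between -1 and 1, that is, within 2-fold, beside 59.4% of all tested genes. This held for 14 of 16 ER genes, 11 of 19 ATF4 targets and 4 of 5 sensors and factors. An interval is narrower where the SE is smaller, and the members' median SE was 0.232, beside 0.277 for all tested genes. In 4 members both sgJUN#1 libraries exceeded every NTC library (10.0%, beside 12.2% of all genes). In 11 members both were under every NTC library (27.5%, beside 12.8% of all genes). Those above were XBP1, SESN2, PPP1R15A and HSPA5. Those below were ATF4, ERN1, CEBPB, DDIT4, STC2, PHGDH, SLC3A2, PDIA3, PDIA4, DNAJB9 and HYOU1. The remaining 25 overlapped.

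**Figure D1:**
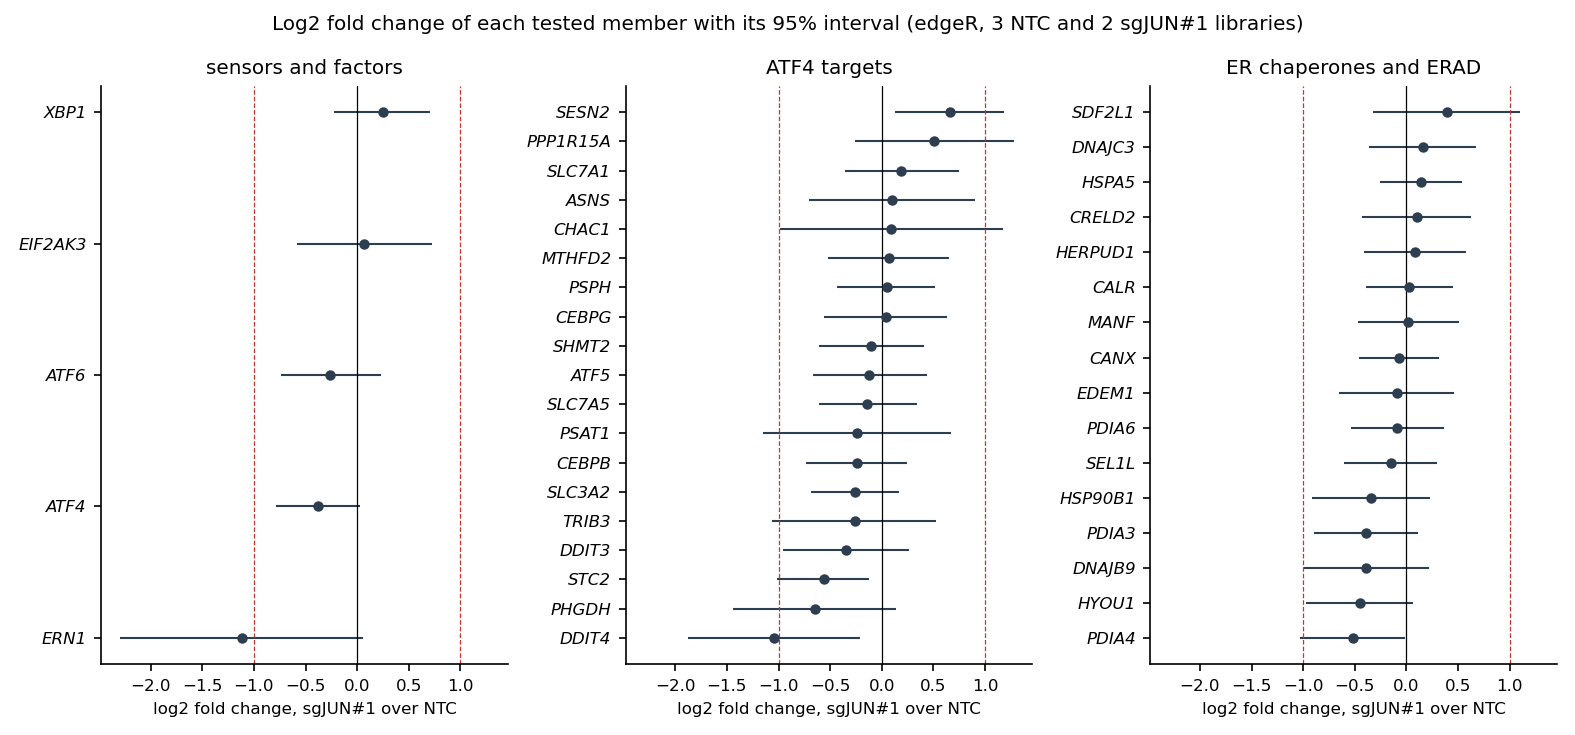
Log2 fold change of each of the 40 tested genes (x axis, sgJUN#1 minus NTC), with points for the estimates, bars for 95% intervals and dashed lines at -1 and 1. Intervals of 29 genes lie between the dashed lines, and the widest of the sensors is that of ERN1, from -2.30 to 0.06.

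The sensors and transcription factors were led in level change by ERN1 and ATF4. ATF4 (chr22:39915700-39918688 on GRCh37), the factor that drives the amino acid arm, had 385.3, 405.8 and 426.8 CPM in NTC and 324.5 and 299.1 CPM in sgJUN#1. Both sgJUN#1 values were the lower ones, by -0.38 on the log2 scale (SE 0.182, 95% interval -0.79 to 0.03, edgeR adjusted p = 0.628). The NTC libraries spread by only 20.7 CPM (SD, n = 3) around a mean of 406.0. ATF4 was 1 of 9 members with pseudogenes of their name in the annotation, which can take or lend reads. The others were ASNS, HSPA5, MTHFD2, PDIA3, PSAT1, PSPH, SLC7A5 and XBP1.

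ERN1, the IRE1α gene (chr17:62116440-62208179), had 10.2, 9.77 and 29.1 CPM in NTC and 6.40 and 9.30 CPM in sgJUN#1. NTC replicate 3 was far above the other 4, which lay close together. The log2 fold change of -1.12 (edgeR adjusted p = 0.621, SE 0.520) became -0.38 when NTC replicate 3 was left out. EIF2AK3, which encodes PERK, had 15.7, 12.2 and 20.6 CPM in NTC and 18.6 and 15.7 CPM in sgJUN#1, and the groups overlapped (log2 fold change 0.07, 95% interval -0.58 to 0.73).

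ATF6, the sensor that is cut to release a transcription factor, had 73.4, 103.0 and 94.3 CPM in NTC and 79.3 and 71.6 CPM in sgJUN#1. The groups overlapped through the first NTC library, and the log2 fold change was -0.26 (SE 0.214). XBP1, whose mRNA IRE1α splices, had 47.9, 56.2 and 43.5 CPM in NTC and 59.4 and 56.9 CPM in sgJUN#1. Its sgJUN#1 values were the higher ones, the nearer by under 1 CPM, and its log2 fold change was 0.25 (edgeR adjusted p = 0.791, SE 0.207). The spliced and unspliced forms of XBP1 share their 3′ end and were not separated.

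**Figure D2:**
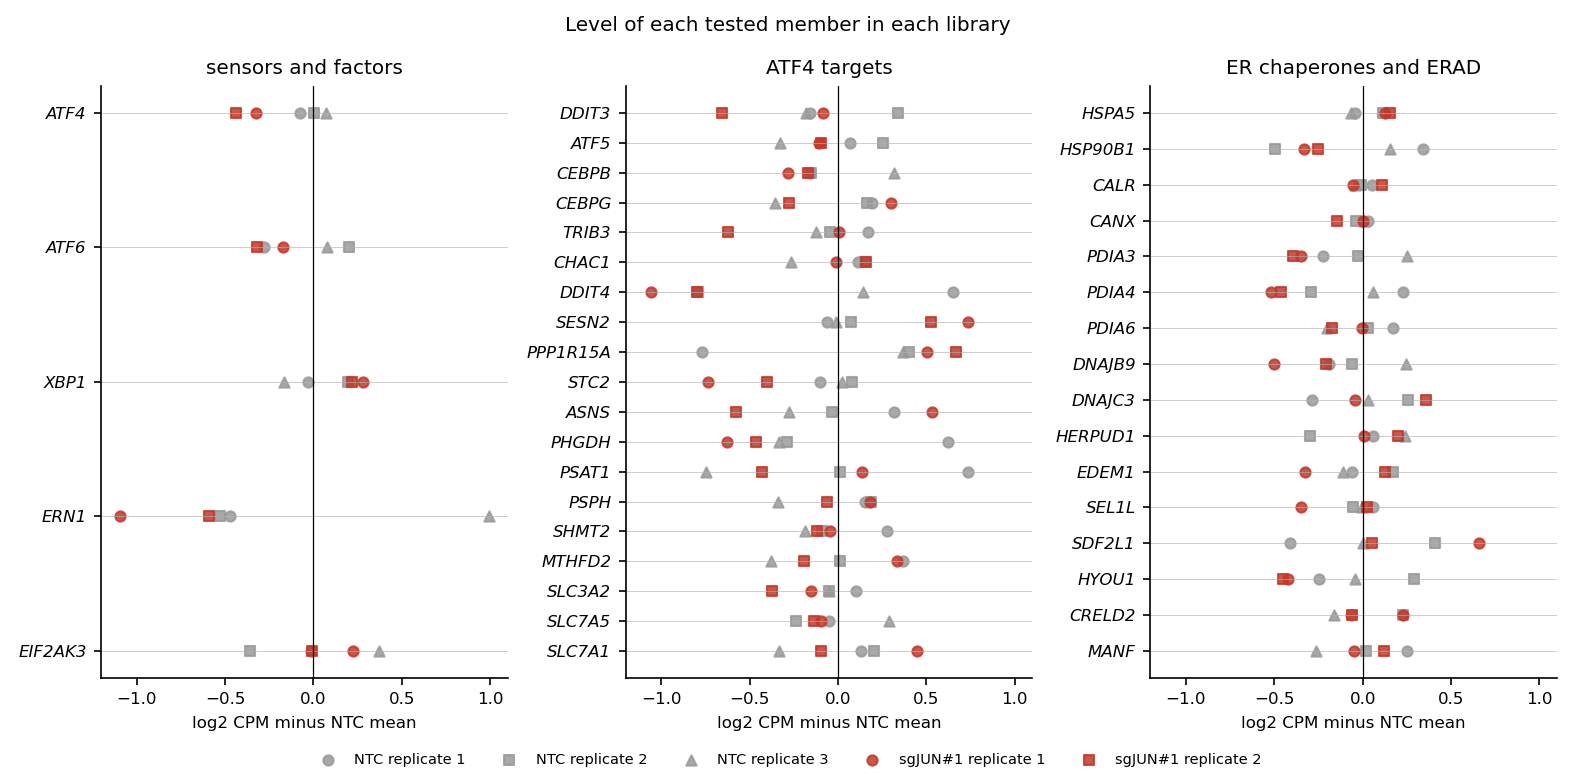
Level of each tested gene in each library, as log2 CPM minus the NTC mean (x axis), in panels by role, with grey symbols for the 3 NTC libraries and red symbols for the 2 sgJUN#1 libraries. ATF4 in red lies left of all grey symbols, SESN2 in red lies right of them, and PSAT1 shows grey symbols spread wider than the red ones.

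Among the ATF4 targets, 19 were tested, with log2 fold changes between -1.04 and 0.66 and a median of -0.116. The regulators, secreted and surface proteins are given first. DDIT4 (chr10:74033678-74035794), which restrains mTORC1 signalling, had 451.6, 166.1 and 316.5 CPM in NTC and 137.7 and 165.3 CPM in sgJUN#1. The sgJUN#1 libraries were the lowest, but NTC replicate 2 was within 1 CPM of the nearer. Its log2 fold change was -1.04 (SE 0.370), with an edgeR p of 0.0202 and an adjusted p of 0.474. Without NTC replicate 1 it was -0.68.

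SESN2, which encodes Sestrin 2, a leucine-binding stress protein that also acts on mTORC1, differed in the other direction. It had 16.2, 17.9 and 16.9 CPM in NTC and 28.7 and 24.7 CPM in sgJUN#1 (chr1:28586029-28609002). The NTC libraries were nearly level and both sgJUN#1 libraries lay clear above them. These values rest on 44 to 139 counts a library. The log2 fold change was 0.66 (SE 0.234, 95% interval 0.13 to 1.18), with an edgeR p of 0.0192 and an adjusted p of 0.465.

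STC2, which encodes the secreted glycoprotein stanniocalcin 2 (chr5:172741726-172755450), had 175.5, 199.4 and 191.9 CPM in NTC and 113.3 and 142.4 CPM in sgJUN#1. The gap between the groups was wider than the spread within either. The log2 fold change was -0.56 (SE 0.200, 95% interval -1.01 to -0.12), with an edgeR p of 0.0188 and an adjusted p of 0.465. PPP1R15A, which encodes GADD34, a regulatory subunit of a phosphatase of eIF2α, had 11.3, 26 and 25.5 CPM in NTC and 28.1 and 31.5 CPM in sgJUN#1. Its sgJUN#1 libraries were highest, though 2 NTC libraries were close to them and the first was low, and the log2 fold change was 0.51 (edgeR adjusted p = 0.744, SE 0.344), or 0.20 without NTC replicate 1.

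DDIT3 encodes CHOP, the factor tied to death under prolonged ER stress. It had 33.6, 47.6 and 33.0 CPM in NTC and 35.3 and 23.6 CPM in sgJUN#1, so the groups overlapped, and the log2 fold change was -0.35 (95% interval -0.96 to 0.26, edgeR adjusted p = 0.779). It was -0.68 without sgJUN#1 replicate 1 and -0.10 without sgJUN#1 replicate 2. The last 500 bases of DDIT3 overlap MARS1 on the opposite strand. Since no source says whether counting used strand, reads from the overlap cannot be told apart. MARS1 itself gave a log2 fold change of -0.08. The transcription factors ATF5, CEBPB and CEBPG had log2 fold changes of -0.12, -0.24 and 0.04, all with intervals within 2-fold. TRIB3, a pseudokinase that holds back the response, had -0.26 and never more than 9.08 CPM. CHAC1, a glutathione-degrading enzyme, had between 7 and 12 counts a library and a log2 fold change of 0.09 (95% interval -0.99 to 1.17), and the upper end of its interval reached past 2-fold.

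**Figure D3:**
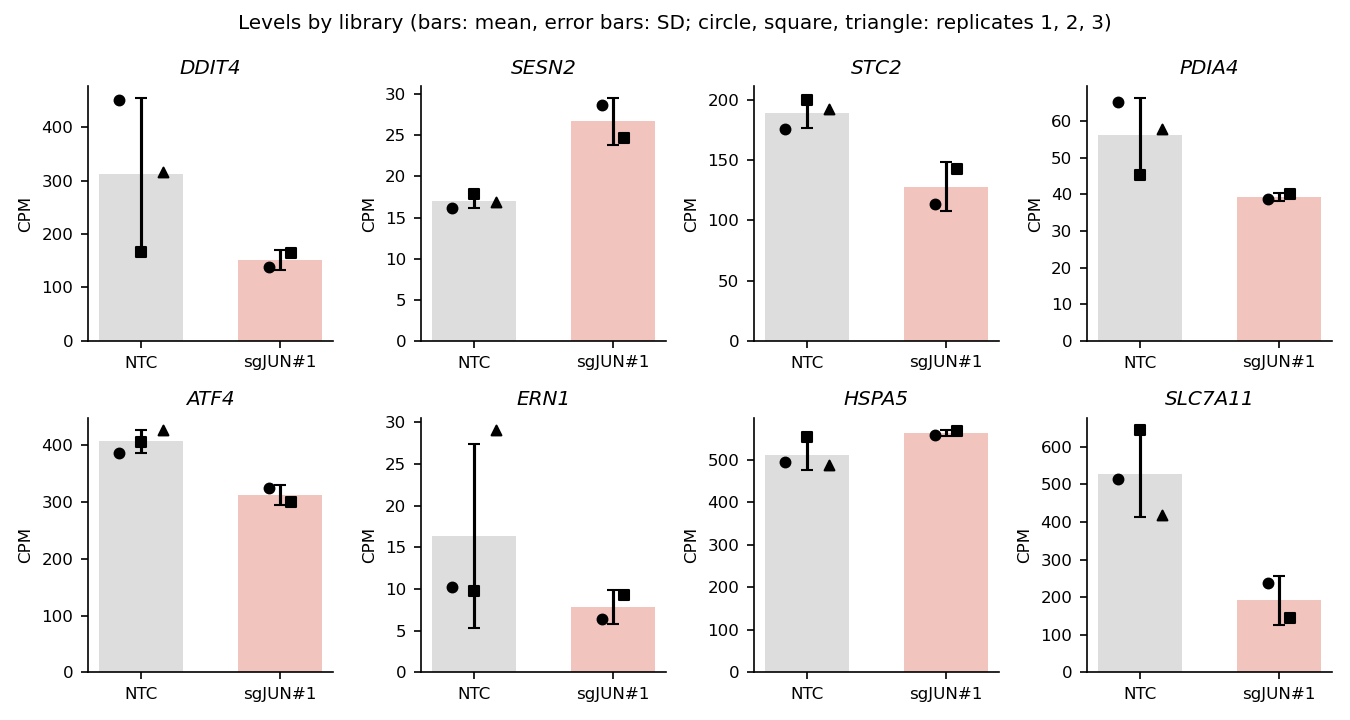
CPM per library (y axis, linear, starting at 0) of 8 genes, with grey bars for the NTC mean, red bars for the sgJUN#1 mean, error bars for the SD and black symbols for single libraries. DDIT4 in NTC spans 166.1 to 451.6 CPM, while SESN2 in NTC spans 16.2 to 17.9 CPM with both sgJUN#1 libraries above it.

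The 9 genes of serine and one-carbon synthesis, asparagine synthesis and amino acid uptake were set apart from the other targets after their values had been seen. None of them reached an unadjusted edgeR p under 0.05, where 8.38% of all tested genes did. At that share few or none of 9 genes would. The split left DDIT4, SESN2 and STC2, which did, among the other targets. PHGDH, which starts serine synthesis, had 30.3, 15.9 and 15.3 CPM in NTC and 12.4 and 14.0 CPM in sgJUN#1. Only the first NTC library was far from the rest, and the log2 fold change was -0.65 (edgeR adjusted p = 0.674, SE 0.351), or -0.25 without that library. PSAT1, the next enzyme of the pathway, had 179.9, 108.7 and 63.9 CPM in NTC and 118.3 and 79.8 CPM in sgJUN#1. ASNS, asparagine synthetase, had 20.4, 15.9 and 13.3 CPM in NTC and 23.7 and 10.7 CPM in sgJUN#1. MTHFD2, the mitochondrial folate enzyme, had 264.3, 206.8 and 157.3 CPM in NTC and 258.6 and 179.3 CPM in sgJUN#1.

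The last 3 differed more between libraries of a group than between groups, with log2 fold changes of -0.24, 0.10 and 0.07. PSPH, the last enzyme of serine synthesis, had 1207.5, 1238.9 and 859.7 CPM in NTC and 1234.2 and 1041.9 CPM in sgJUN#1 (log2 fold change 0.05), and SHMT2, the mitochondrial serine hydroxymethyltransferase, had -0.10. Of the transporter genes, SLC3A2, the shared heavy chain, had 120.2, 107.9 and 108.0 CPM in NTC and 100.7 and 86.2 CPM in sgJUN#1. Both sgJUN#1 values were lower, by a log2 fold change of -0.26 (95% interval -0.69 to 0.17). SLC7A5, its leucine-carrying partner, and SLC7A1, the cationic amino acid transporter, had -0.14 and 0.19, and both overlapped.

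These 9 genes mostly ran in a common order across the libraries of a group. Since they were set apart after their values had been seen, this order is a description only. Their mean log2 CPM relative to the NTC mean was 0.29, -0.03 and -0.26 in NTC and 0.08 and -0.27 in sgJUN#1, a spread of 0.280 (SD, n = 3) among NTC libraries with no gap between the groups. Of the 9, 8 were higher in NTC replicate 1 than in replicate 3, where 47.3% of all tested genes were. In sgJUN#1, 8 were higher in replicate 1 than in replicate 2, where 49.6% of all genes were. Of the other 10 tested ATF4 targets, 6 were higher in NTC replicate 1 and 4 in sgJUN#1 replicate 1, so they did not share the order. The 12 aminoacyl-tRNA synthetase genes, further known ATF4 targets, gave the same order as the 9. They were listed apart from the 41, with earlier results of these data known. Their levels were 0.17, -0.05 and -0.12 in NTC and 0.17 and -0.06 in sgJUN#1, with 10 of 12 higher in NTC replicate 1 than in replicate 3 and 11 of 12 higher in sgJUN#1 replicate 1 than in replicate 2. These genes share their libraries, so the counts describe 5 libraries and are not independent observations.

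The ER chaperones and ERAD genes had the smallest median size of log2 fold change of the 3 groups, 0.146 beside 0.241 for the ATF4 targets and 0.255 for the sensors and factors. Over the 16 genes the log2 fold change spanned -0.52 to 0.39, and the median was -0.081. The mean level of the group was -0.02, 0.01 and 0.01 in NTC and -0.12 and -0.06 in sgJUN#1. Both sgJUN#1 libraries thus lay just under the NTC libraries, whose SD was 0.0185. The same mean over all tested genes was -0.04, 0.01 and 0.04 in NTC (SD 0.0413) and -0.01 and 0.01 in sgJUN#1. HSPA5, the Hsp70 chaperone BiP and the usual gauge of ER stress (chr9:127997132-128003661), had 494.3, 552.3 and 486.9 CPM in NTC and 557.3 and 568.2 CPM in sgJUN#1. The sgJUN#1 values were the highest, by a log2 fold change of 0.14 (SE 0.178, 95% interval -0.26 to 0.54, edgeR adjusted p = 0.878).

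The other large chaperones gave values on both sides of 0. HSP90B1, the Hsp90 of the ER, had 367.7, 205.5 and 323.6 CPM in NTC and 230.1 and 243.3 CPM in sgJUN#1, and its second NTC library was the lowest of all (log2 fold change -0.34, SE 0.256). The lectin chaperone calreticulin, encoded by CALR, had 107.8, 103.4 and 100.9 CPM in NTC and 100.1 and 112.3 CPM in sgJUN#1. The membrane-bound calnexin, encoded by CANX, had 751.7, 715.9 and 737.1 CPM in NTC and 735.4 and 664.8 CPM in sgJUN#1. Both lectins were close to level across all 5 libraries, with log2 fold changes of 0.03 (95% interval -0.39 to 0.45) and -0.07 (95% interval -0.46 to 0.32). HSPA5, HSP90B1, CALR and CANX, together with CRELD2 (0.10), are the 5 ER genes whose ERSE is printed above.

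The protein disulphide isomerases, which form and shuffle disulphide bonds, were led by PDIA4 (chr7:148700154-148725754). It had 65.2, 45.2 and 57.9 CPM in NTC and 38.6 and 40.1 CPM in sgJUN#1. Both sgJUN#1 values were lower than any NTC value, and the log2 fold change was -0.52 (SE 0.227, 95% interval -1.03 to -0.01), with an edgeR p of 0.0472 and an adjusted p of 0.590. PDIA3, which works with the lectin chaperones, had 45.9, 52.9 and 64.1 CPM in NTC and 42.1 and 40.8 CPM in sgJUN#1. Its groups did not overlap (log2 fold change -0.39, SE 0.222, edgeR adjusted p = 0.694). PDIA6 had -0.09 with overlap.

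Of the co-chaperones, HYOU1, an exchange factor of BiP, had 46.8, 68.0 and 53.9 CPM in NTC and 41.3 and 40.4 CPM in sgJUN#1. The sgJUN#1 libraries agreed within 1 CPM and lay under all 3 NTC libraries, with a log2 fold change of -0.45 (edgeR adjusted p = 0.654, SE 0.228). DNAJB9, a J-domain partner of BiP that is a known XBP1 target, had 17.1, 18.7 and 23.3 CPM in NTC and 13.6 and 16.8 CPM in sgJUN#1 (log2 fold change -0.39, SE 0.270). Its groups were separated by under 1 CPM. SDF2L1, a small partner of J-domain proteins in the ER, had 11.6, 20.8 and 15.5 CPM in NTC and 24.8 and 16.1 CPM in sgJUN#1. It gave the highest estimate of the ER genes, 0.39 (edgeR adjusted p = 0.789, SE 0.318), with overlapping groups, but 0.03 without sgJUN#1 replicate 1.

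The remaining ER genes all overlapped between groups. DNAJC3, which encodes the co-chaperone p58IPK, had a log2 fold change of 0.16, and MANF, a secreted ER stress protein, had 0.02. The ERAD genes HERPUD1, EDEM1 and SEL1L had 0.08, -0.09 and -0.15. As for DDIT3, the last 500 bases of HSP90B1, MTHFD2, PDIA3 and PDIA6 overlap a gene on the opposite strand (UQCC6, SLC4A5, ELL3 and ATP6V1C2). Reads from the overlaps cannot be told apart.

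**Figure D4:**
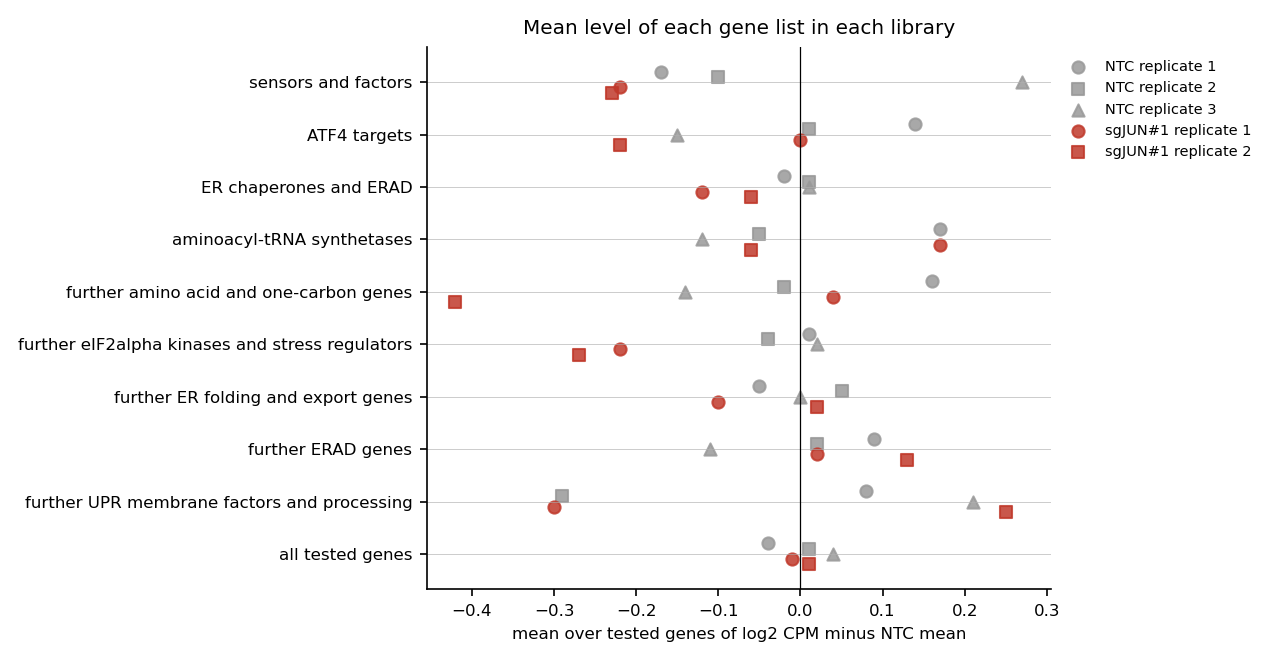
Mean level of each gene list in each library, as log2 CPM minus the NTC mean averaged over the tested genes of the list (x axis), with grey symbols for NTC and red for sgJUN#1. The ER chaperones and ERAD genes stay between -0.12 and 0.01, while the further amino acid and one-carbon genes range from -0.42 to 0.16.

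A further 72 genes of these pathways, listed by function but with earlier results of these data known, extend the picture. Of 70 tested, 0 passed with edgeR and 1 with DESeq2, and 3 had an unadjusted edgeR p under 0.05, all lower in sgJUN#1. Those 3 are 4.29% of the tested genes of these lists, near the 4.36% of all genes that were lower at that p, and 0.206% and 0.975% of all genes passed with edgeR and DESeq2. The gene called by DESeq2 was SLC7A11, the cystine-glutamate exchanger and a known target of ATF4. It had 515.2, 645.1 and 418.8 CPM in NTC and 237.8 and 145.6 CPM in sgJUN#1. All sgJUN#1 values were far below the NTC values, and the log2 fold change was -1.45 (SE 0.277, 95% interval -2.08 to -0.83), with an adjusted p of 0.106 in edgeR and 0.00031 in DESeq2. SLC3A2, which encodes the heavy chain that SLC7A11 needs at the cell surface, had the smaller -0.26 given above.

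The list of amino acid and one-carbon genes had a median of -0.003, with 6 of 12 intervals within 2-fold, and SLC38A2, the sodium-coupled neutral amino acid transporter, came next at -0.43 with overlap. The synthetases had a median of 0.006, and WARS1 (0.48, sgJUN#1 above, edgeR adjusted p = 0.624) and LARS1 (0.29) had their largest values. The list of eIF2α kinases and stress regulators had the lowest median, -0.287 over 11 genes, and 4 of the 11 (36.4%, beside 12.8% of all genes) had both sgJUN#1 libraries below all NTC libraries. Its mean level was 0.01, -0.04 and 0.02 in NTC and -0.22 and -0.27 in sgJUN#1.

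Within that list JDP2, a bZIP protein that pairs with JUN, had 20.9, 28.1 and 20.6 CPM in NTC and 16.7 and 10.7 CPM in sgJUN#1 (log2 fold change -0.72, SE 0.294, edgeR adjusted p = 0.552). NUPR1, a small stress-induced chromatin protein, had 12.1, 11.8 and 16.6 CPM in NTC and 9.08 and 7.51 CPM in sgJUN#1 (log2 fold change -0.70, SE 0.310, edgeR adjusted p = 0.593). KLHL24 had the lowest estimate of the list, -0.80 (SE 0.409), with overlapping groups and one high NTC library at 64.1 CPM, and its estimate was -0.29 without that library. ATF3, a stress-induced partner of JUN, and EIF2AK4, which encodes the amino acid sensor GCN2, were the other 2 below, at -0.33 and -0.29.

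Further ER genes had small median log2 fold changes. The 17 tested folding and export genes had a median of -0.038, with SIL1 (-0.50) and ERO1B (-0.34) the lowest. Of these 17, 1 lay above all NTC libraries in both sgJUN#1 libraries and 1 below. The 13 tested ERAD genes had a median of 0.050, with SELENOS (0.40) and DERL1 (0.33) the highest. Of these 13, 3 lay above (23.1%, beside 12.2% of all genes) and 0 below (beside 12.8%). All 13 ERAD genes and 15 of the 17 folding genes had intervals within 2-fold, beside 59.4% of all genes. Their median SE was also smaller, at 0.221 and 0.217, beside 0.277 for all tested genes, which narrows the intervals. Of the 5 membrane factors and processing genes, ATF6B (-0.49) and CREB3L2 (0.43) had the largest values, and all 5 overlapped. Their mean levels were 0.08, -0.29 and 0.21 in NTC and -0.30 and 0.25 in sgJUN#1, so that replicates of a group differed more than the groups did.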

How the data were processed

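MCF10A SAM cells were profiled in 5 libraries, grouped by sample title. The authors made QuantSeq 3′ mRNA-Seq FWD libraries and deposited raw counts per gene under Entrez identifiers. The submitters' processing notes name cutadapt 4.2, Bowtie2 2.3.5.1 and hg19. Which annotation was counted, whether strand was used, how reads with several alignments were treated and whether molecular identifiers were used are not given in the sources used here. Without molecular identifiers, PCR copies count as reads.

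All 5 columns of counts were used, and 0 remained unmapped. RefSeq names (GRCh38.p14) matched 99.36% of genes, and gene positions are from GENCODE version 44 on GRCh37, which corresponds to hg19. Promoter sequences are from RefSeq on GRCh38.p14. Same-group libraries differed by more than counting noise. The chi-square per degree of freedom was 8.42 for NTC replicates 1 and 2 and 8.22 for the sgJUN#1 pair. NTC replicate 3 gave the larger values, 20 with NTC replicate 1 and 14.9 with NTC replicate 2.

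Counts were tested with the edgeR 4.0.16 quasi-likelihood F test in R 4.3.3 (TMM, filterByExpr, robust fit, group as the only term), with Benjamini-Hochberg adjustment over 13616 genes and a threshold of 0.05. The biological coefficient of variation was 22.3%. The SE was taken as the absolute log2 fold change over the root of F, and the 95% interval uses the t quantile at the fit's degrees of freedom. Log2 CPM for list levels used a prior count of 2. Alternatives were DESeq2 1.42.0 (the study's tool), limma-voom (limma 3.58.1), other scalings, no filter, a replicate block and leaving out each library. The fits were tested on simulated data.

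The members and lists were chosen with earlier results of these data known. Values are given for JUN, all sensors and factors, ATF4, XBP1, DDIT3, HSPA5, members past the threshold, the 5 largest log2 fold changes of each member list, and, in the further lists, genes past the threshold and the 2 largest of each. Every other gene named with values was chosen after its values were seen.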

Additional observations from a re-analysis of the deposited data

How the results depend on the processing

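No member passed the threshold in any alternative that kept 2 or more libraries in each group. The count over all genes was 28 in the reported fit, 136 with DESeq2, 148 with no filter and 103 with a replicate block. It was between 10 and 57 when single NTC libraries were left out. These are small shares of all genes (0.206% in the reported fit, 0.975% with DESeq2). At such shares few or no calls would fall among 40 members. JUN, at a log2 fold change of 3.25 and not past the threshold in the reported edgeR fit, passed with DESeq2 (3.24), limma-voom (3.47), the replicate block (2.82) and without NTC replicate 2 (3.68) or NTC replicate 3 (2.84), within 2.84 to 3.68 over the libraries left out. The sign of 20 of the 40 tested members was the same in all settings. It was not for EIF2AK3, ATF5, CEBPG, TRIB3, CHAC1, ASNS, PSAT1, PSPH, SHMT2, MTHFD2, SLC7A5, SLC7A1, CALR, CANX, DNAJC3, HERPUD1, EDEM1, SEL1L, CRELD2 and MANF, and between 2 and 9 members took the other sign when a single library was left out.

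The median log2 fold change of the ATF4 targets ranged from -0.261 (without sgJUN#1 replicate 1) to 0.057 (without NTC replicate 1), so its direction rests on single libraries. That of the ER chaperones and ERAD genes ranged from -0.13 (without NTC replicate 3) to -0.018 (without sgJUN#1 replicate 1) and was -0.133 with the replicate block, and that of the sensors and factors from -0.386 to -0.154. For the genes that turned among those followed one by one, the log2 fold change over the libraries left out was -0.08 to 0.30 for EIF2AK3, -1.31 to 0.17 for ATF6B (0.04 without NTC replicate 3), -0.04 to 0.80 for CREB3L2, -0.05 to 0.11 for CALR, -0.14 to 0.01 for CANX, -0.62 to 0.53 for ASNS, -0.56 to 0.21 for PSAT1 and -0.22 to 0.31 for MTHFD2. Some other values, not given above, kept their sign but moved by over 1.5 times when a library was left out. Among members they ran from -0.55 to -0.17 for HSP90B1, from -0.53 to -0.23 for DNAJB9, from -0.50 to -0.25 for PDIA3 and from -0.39 to -0.15 for ATF6. Among the further genes they ran from -1.1 to -0.46 for JDP2, from -0.65 to -0.2 for SLC38A2, from 0.16 to 0.42 for LARS1 and from 0.18 to 0.44 for DERL1. The replicate block gave -0.11 for ASNS and -0.12 for MTHFD2. SLC7A11 also passed with no filter (-1.46), with the replicate block (-1.62) and without NTC replicate 3 (-1.59). The cause of these changes was not tested.

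Replicate numbers were shared by the groups, but libraries with the same number did not deviate together (r = 0.0146 over 13616 genes), and the block uses 2 pairs only. With 3 and 2 libraries of at most 4988062 counts, VLDLR could not be tested and members of few counts such as CHAC1 are loosely bounded. The intervals of the log2 fold changes include the spread between libraries. Only the CPM limits for a gene with no count cover counting error alone.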
